A study of Mus musculus with 12 samples.

Results

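The comparison set all 8 mouse malignant peripheral nerve sheath tumours (MPNST) treated with a drug combination against 4 tumours given vehicle, out of 12 tumours in the series. The treated members were the libraries whose titles name a combination or a regressing tumour. Of these, 4 were harvested during regression (regressing tumours) and 4 at the terminal time point (terminal combination tumours). Their mice received 100 mg/kg palbociclib with 1 mg/kg mirdametinib by daily oral gavage. Harvest of the vehicle tumours was terminal, so that harvest and treatment differ together for the regressing group and cannot be told apart there. All 12 tumours came from C57B/6 mice labelled wild type, in which an adenovirus delivered Cas9 against Nf1 and against a gene spelled Cdk2na in the labels, read here as Cdkn2a. No ages are given. The labels do not say whether each tumour had its own mouse, so p-values measure only the spread between these samples. RNA from whole tumours was sequenced from stranded mRNA libraries, with 13194699 to 21935527 counted reads in treated and 14181703 to 22639625 in vehicle tumours. A count of 0 allowed up to 0.133 to 0.231 CPM in treated and 0.128 to 0.214 CPM in vehicle tumours, for counting error only. CPM are counts relative to the library total, scaled by TMM, a correction for differences in library composition. Across all 15650 genes tested the median log2 difference (treated minus vehicle) was 0.01.

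Palbociclib inhibits CDK4 and CDK6, the kinases that phosphorylate RB with D-type cyclins and so free E2F factors to transcribe genes of DNA replication. Genes of G2 and mitosis are switched on later in the cycle, through promoter elements named cell cycle genes homology regions (CHR). Mirdametinib inhibits MEK, the kinase above ERK. Loss of Nf1, a brake on RAS, raises activity of that route in nerve sheath tumours, and ERK in turn drives D-type cyclins, ETS factors of the ETV group, and its own feedback inhibitors of the DUSP and Sprouty families. The comparison asks which transcripts differ from vehicle in tumours on both drugs, whichever of the harvests is taken.

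Genes of cell division were lower, and genes of muscle, fat, blood and lysosomes higher, in both treated groups, but no single gene passed the edgeR quasi-likelihood test. Of 15650 genes, 0 (percent called 0) had an adjusted p under 0.05, and the smallest adjusted p was 0.409. At an unadjusted p under 0.05, 860 genes were higher (5.5%) and 728 lower (4.65%), where 782.5 in all would be expected by chance. DESeq2, run as an alternative, called 214 genes higher (1.4%) and 41 lower (0.269%) of 15237. For 67 genes all 8 treated tumours lay above all 4 vehicle tumours (0.428% of genes tested), and for 60 all 8 lay below (0.383%). The treated groups share their vehicle tumours. With that in common, 34% of all genes were higher in both treated groups and 35.1% lower in both. Each treated group was also compared with vehicle in a joint fit of all tumours by group. Regressing against vehicle tumours gave 0 genes by edgeR, 1994 (12.7%) at an unadjusted p under 0.05 and 477 (3.07%) by DESeq2. Terminal combination against vehicle tumours gave 0 by edgeR, 930 (5.94%) at an unadjusted p under 0.05 and 14 (0.092%) by DESeq2.

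**Figure D1:**
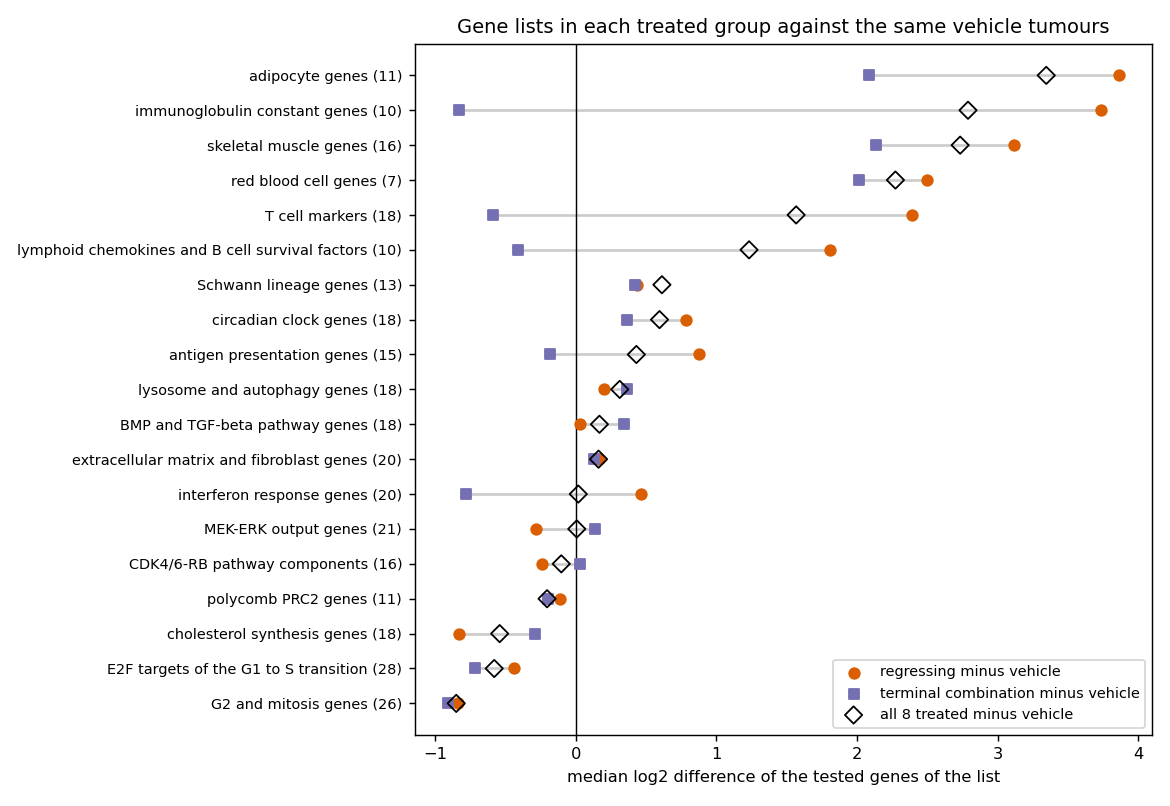
Median log2 difference (x axis) of the tested genes of 19 lists (y axis, number tested in brackets), for regressing minus vehicle (circles), terminal combination minus vehicle (squares) and all 8 treated minus vehicle (diamonds). G2 and mitosis genes lie at -0.84 and -0.91, skeletal muscle genes at 3.12 and 2.14, while immunoglobulin constant genes lie on opposite sides of 0, at 3.74 and -0.83.

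All 26 tested genes of G2 and mitosis were lower in both treated groups, where 35.1% of all genes were, and 19 of them had an unadjusted p under 0.05 in the pooled comparison, where 4.65% of all genes did. DESeq2 called 2 of the 26 as lower, as it did 0.269% of the genes it tested. Their median log2 difference was -0.85 in all treated tumours, -0.84 in regressing and -0.91 in terminal combination tumours. Mki67 (ENSMUSG00000031004, chromosome 7, 135689784 to 135716361, GRCm38), the gene of the proliferation antigen Ki-67, stood at 28.7, 63.6, 44.98 and 39.3 CPM in regressing, 58.1, 33.9, 76.4 and 25.0 CPM in terminal combination and 109, 61.5, 169 and 153 CPM in vehicle tumours. Only vehicle replicate 2 lay within the treated range, and the pooled difference was log2 -1.41, SE 0.32 (edgeR adjusted p 0.409). Cenpf, a kinetochore protein gene, ranged from 6.90 to 31.4 CPM (median 16.3) in treated tumours, against 50.0, 26.5, 56.4 and 44.98 CPM in vehicle tumours. Its lowest treated values were in regressing replicate 1 and terminal combination replicate 4, and again vehicle replicate 2 alone overlapped the treated tumours. Cenpa, the centromeric histone H3 gene, stood at 16.9, 45.3, 32.7 and 25.1 CPM in regressing, 40.6, 30.3, 37.7 and 20.9 CPM in terminal combination and 51.3, 61.2, 62.0 and 51.8 CPM in vehicle tumours. Every treated tumour lay below every vehicle tumour for Cenpa (log2 -0.86, SE 0.23, edgeR adjusted p 0.409) and for Kif23, a midzone kinesin gene with 24.4 ± 11.1 CPM in treated and 44.3 ± 3.75 CPM in vehicle tumours. Ccna2, which encodes cyclin A2, ranged from 27.7 to 122 CPM (median 64.4) in treated tumours, against 143, 114, 123 and 152 CPM in vehicle tumours. Terminal combination replicate 1 alone entered the vehicle range for Ccna2, with regressing replicate 2 just below it and a pooled difference of log2 -0.93, SE 0.34 (edgeR adjusted p 0.425). Cdk1, the mitotic kinase gene, had the highest p of the list (edgeR unadjusted p 0.192), with 79.6 ± 44.4 CPM in treated and 115 ± 14.1 CPM in vehicle tumours.

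Some genes outside that list were also lower in every treated tumour. H2afx (ENSMUSG00000049932, chromosome 9, 44334694 to 44336077), the histone H2A variant that is phosphorylated at DNA breaks, had the smallest p of all genes. Its values were 27.1, 41.3, 36.8 and 35.6 CPM in regressing, 27.5, 34.6, 34.1 and 25.3 CPM in terminal combination and 52.4, 86.3, 73.3 and 57.8 CPM in vehicle tumours. The highest treated value lay below the lowest vehicle value, and the pooled difference was log2 -1.04, SE 0.17 (unadjusted p 3.28e-05, edgeR adjusted p 0.409). In Kif14, a cytokinesis kinesin gene, values ran from 3.82 to 12.4 CPM (median 7.87) in treated tumours, against 19.3, 13.7, 24.4 and 16.7 CPM in vehicle tumours. Incenp, a subunit of the chromosomal passenger complex, ran from 20.1 to 60.7 CPM (median 34.6) in treated tumours, against 61.9, 67.3, 79.9 and 82.3 CPM in vehicle tumours. The lowest treated values of both genes were in terminal combination replicate 4 and regressing replicate 1. Cdca7, a MYC and E2F target that partners the chromatin remodeller HELLS, ran from 11.02 to 38.9 CPM (median 27.0) in treated tumours, against 45.6, 50.3, 70.1 and 51.5 CPM in vehicle tumours. Arhgef39, a guanine nucleotide exchange factor gene, ran from 0.913 to 3.02 CPM (median 2.29) in treated tumours, against 5.603, 4.65, 5.64 and 5.43 CPM in vehicle tumours. Slc29a2, an equilibrative nucleoside transporter gene, averaged 5.10 ± 2.03 CPM across treated and 9.59 ± 0.950 CPM across vehicle tumours (SD), and Snrpa1, a U2 snRNP protein gene, averaged 25.0 ± 3.23 CPM across treated and 36.0 ± 2.02 CPM across vehicle tumours. All 6 of these genes were lower in every treated tumour than in every vehicle tumour. Their edgeR adjusted p values ran from 0.409 to 0.421.

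**Figure D2:**
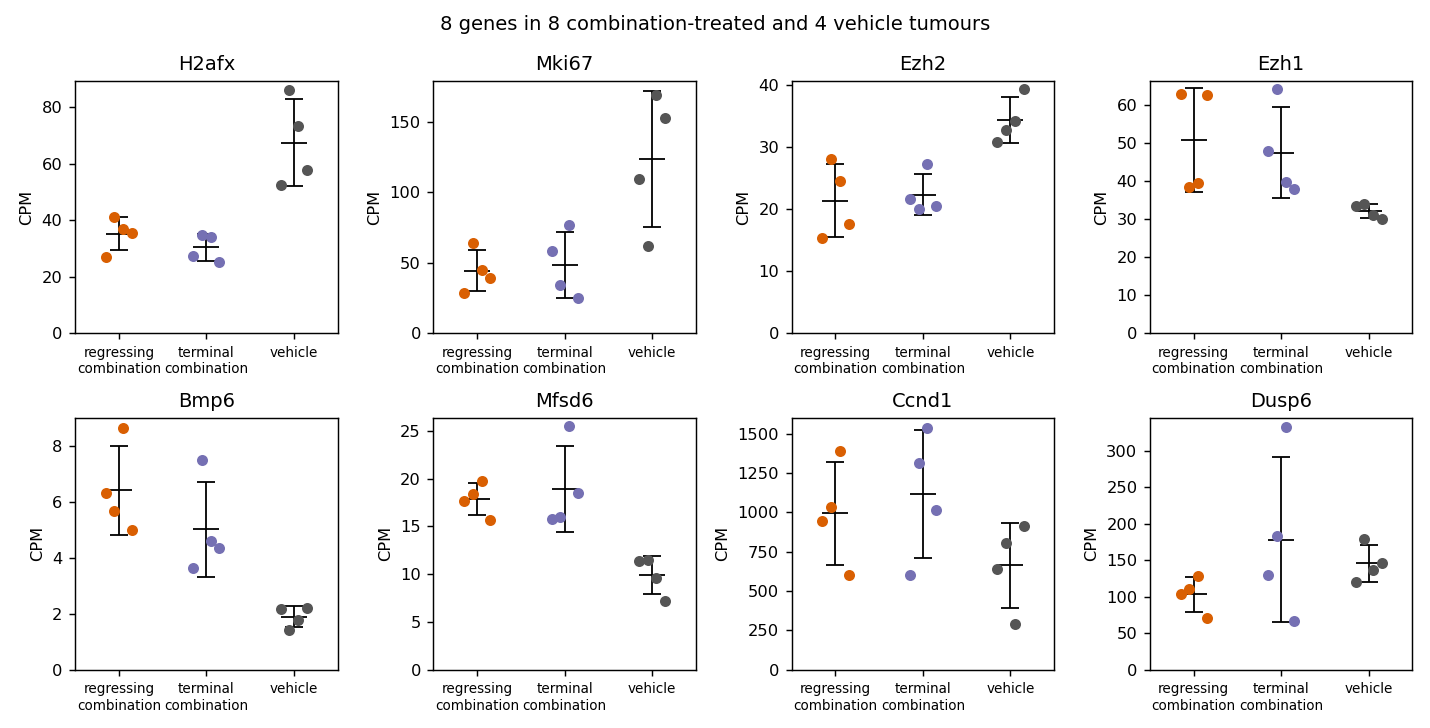
CPM (y axes, linear, from 0) of 8 genes in each regressing, terminal combination and vehicle tumour. Points are tumours and bars are group means ± SD over 4 tumours; H2afx and Ezh2 lie lower, and Ezh1, Bmp6 and Mfsd6 higher, in all 8 treated tumours than in any vehicle tumour, whereas Ccnd1 and Dusp6 overlap.

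Genes that E2F turns on at the G1 to S transition, which encode replication enzymes, had a smaller median difference: 27 of 28 tested genes were lower in both treated groups, as were 35.1% of all genes. At an unadjusted p under 0.05, 9 were lower, where 4.65% of all genes were, and DESeq2 called 0. The list median was -0.58, with -0.44 in regressing and -0.71 in terminal combination tumours. Mcm4, a subunit of the replicative helicase, ranged from 50.4 to 104 CPM (median 67.3) in treated tumours, against 93.1, 104, 123 and 115 CPM in vehicle tumours. Only terminal combination replicate 3 entered the vehicle range for Mcm4 (log2 -0.60, SE 0.18, edgeR adjusted p 0.409). Rrm2, the small subunit of ribonucleotide reductase, varied more, with 19.0, 104, 50.7 and 26.5 CPM in regressing, 42.5, 25.0, 63.3 and 30.01 CPM in terminal combination and 65.4, 78.0, 164 and 93.2 CPM in vehicle tumours. Regressing replicate 2 was above 3 of the 4 vehicle tumours for Rrm2. Fen1, a flap endonuclease gene, averaged 38.9 ± 14.2 CPM across treated and 63.5 ± 13.1 CPM across vehicle tumours. Regressing replicate 2 and terminal combination replicates 1 and 3 lay within the vehicle range of Fen1. E2f1 was the exception of the list, with 44.6 ± 9.41 CPM in treated and 42.2 ± 8.95 CPM in vehicle tumours. The mean log2 CPM of the 28 genes was 5.04 ± 0.54 in treated and 5.72 ± 0.31 in vehicle tumours (SD, n = 8 and 4). It was 4.98 ± 0.68 in treated and 5.97 ± 0.23 in vehicle tumours (SD, n = 8 and 4) for the 26 genes of G2 and mitosis. Regressing replicates 2 and 3 and terminal combination replicates 1 and 3 had the 4 highest treated scores on both lists.

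The promoters of both lists were compared by their letters, and 4 promoters that hold a motif are shown. Mki67 had the smallest p of the G2 and mitosis list and Cenpa did not overlap between the groups, while Ezh2 and Cdca7 are on neither list and are shown because they did not overlap. The sequences are RefSeq promoters of the build GRCm38.p6, from 120 bases before to 30 bases after the annotated start, 5′ to 3′ on the gene's strand, with the motif in capitals. For CHR the letters searched were TTTGAA or TTCGAA, and for E2F they were TTTCCCGC, TTTGGCGC, TTTCGCGC or TTTGCCGC, each on both strands.
Mki67 promoter (CHR, chr7:135716350-135716499, minus strand): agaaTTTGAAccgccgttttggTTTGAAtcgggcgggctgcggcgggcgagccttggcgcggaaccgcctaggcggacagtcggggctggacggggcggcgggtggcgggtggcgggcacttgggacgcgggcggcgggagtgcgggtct
Cenpa promoter (CHR, chr5:30666766-30666915, plus strand): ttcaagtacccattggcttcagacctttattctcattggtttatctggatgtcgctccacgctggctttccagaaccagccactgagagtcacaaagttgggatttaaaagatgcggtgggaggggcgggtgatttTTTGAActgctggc
Ezh2 promoter (E2F, chr6:47595001-47595150, minus strand): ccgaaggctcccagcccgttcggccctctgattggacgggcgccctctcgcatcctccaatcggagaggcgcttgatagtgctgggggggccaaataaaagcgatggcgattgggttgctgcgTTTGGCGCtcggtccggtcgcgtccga
Cdca7 promoter (E2F on the other strand, chr2:72476099-72476248, plus strand): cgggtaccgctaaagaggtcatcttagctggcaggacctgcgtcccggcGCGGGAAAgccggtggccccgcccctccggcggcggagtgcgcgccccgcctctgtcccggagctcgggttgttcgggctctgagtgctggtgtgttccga
Over windows from 250 bases before to 50 bases after the start, 19.4% of 27025 mouse promoters held CHR letters. They were in 80% of the 20 G2 and mitosis promoters found in the table, in 22.7% of 22 E2F target promoters, and in 0 of 10 cholesterol synthesis promoters. E2F letters were in 2.32% of all promoters, in 45.5% of the 22 E2F target promoters and in 5% of the 20 G2 and mitosis promoters. A match describes the letters only and is not evidence of binding. The E2F target list was composed for E2F control, so its share follows in part from its choice. Genes of G2 and mitosis are a class known for control through CHR, so their share is not independent of the choice either.

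Markers of skeletal muscle moved in the opposite direction to these lists of division genes. The skeletal muscle list, whose 16 tested genes encode contractile and energy proteins of muscle fibres, scored 10.85, 7.40, 8.97 and 10.76 mean log2 CPM in regressing, 6.89, 9.85, 8.54 and 9.40 in terminal combination and 8.46, 4.39, 5.87 and 6.77 in vehicle tumours. The highest scores were in regressing replicates 1 and 4 and terminal combination replicate 2, which, with terminal combination replicate 4, had the 4 lowest division scores. Once the muscle score entered the fit as a covariate, the median of G2 and mitosis genes was -0.34, and 24 of 26 genes stayed lower. For E2F targets it was -0.16, with 24 of 28 lower. Without those 3 tumours the medians were -0.62 with 26 of 26 lower, and -0.36 with 25 of 28 lower. The differences of H2afx, -0.77 with the covariate and -1.04 without the 3 tumours, and of Mki67, -1.08 and -1.21, kept their sign. Those of other genes moved further with the covariate, to -0.36 for Cenpa, -0.61 for Cdca7, -0.50 for Slc29a2 and -0.31 for Incenp, against -0.86, -1.04, -0.91 and -0.88 without it. Of the named genes with an unadjusted p under 0.05, 14 of 31 lower ones and 25 of 43 higher ones had a difference over 1.5 times smaller with the covariate. The higher ones include Atp2a1, Tnni2 and Myoz1, members of the list that makes the score, for which a smaller difference follows from its construction. The score itself averaged 9.08 ± 1.44 in treated and 6.37 ± 1.70 in vehicle tumours (SD), so the covariate and treatment cannot be fully told apart. In bulk tissue, fewer dividing cells and less of a transcript per cell cannot be told apart.

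**Figure D3:**
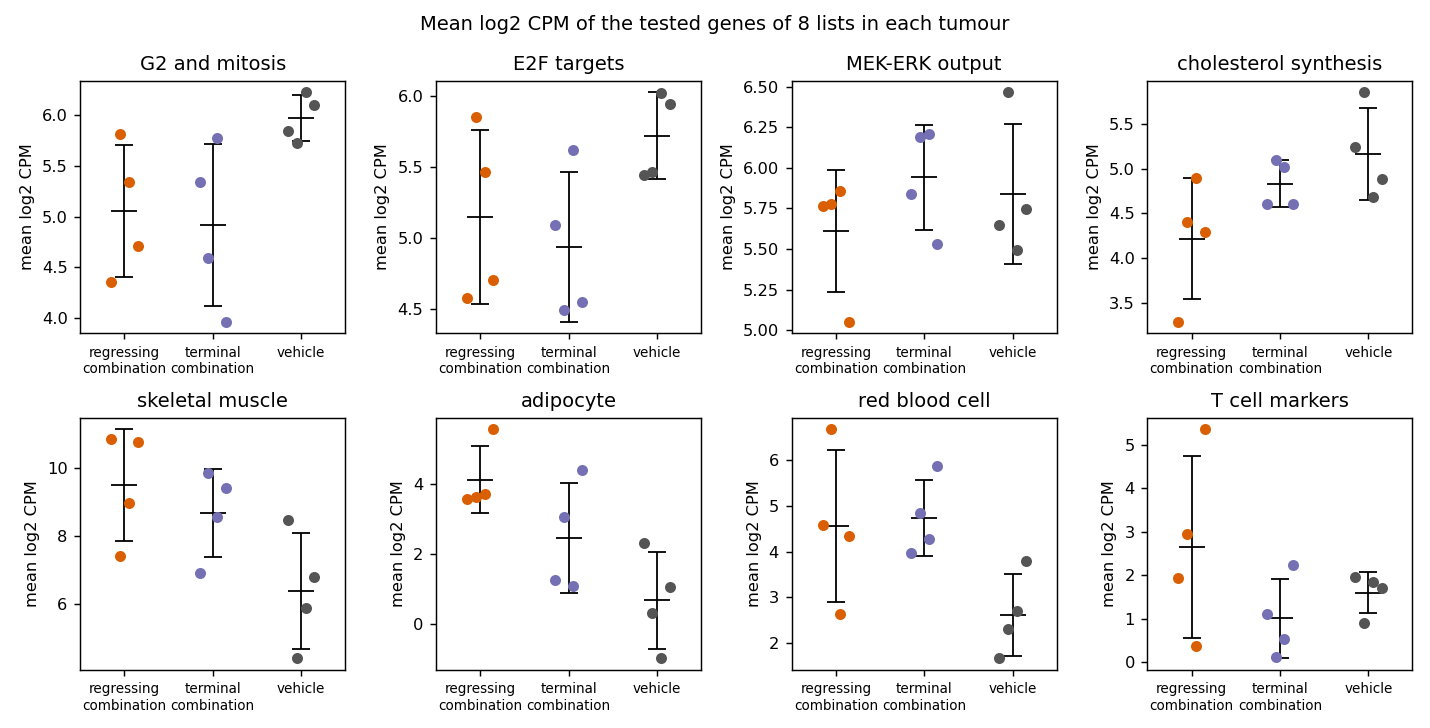
Mean log2 CPM (y axes, not starting at 0) of the tested genes of 8 lists in each regressing, terminal combination and vehicle tumour. Points are tumours and bars are group means ± SD over 4 tumours; division scores are spread widely among treated tumours and narrowly among vehicle tumours, and muscle, adipocyte and red blood cell scores are higher on average in both treated groups.

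Components of the CDK4/6-RB route did not share a direction: 16 tested components of the CDK4/6-RB route had a median of -0.10, with -0.24 in regressing and 0.03 in terminal combination tumours. Cdkn2c, which encodes the CDK4/6 inhibitor p18, had the smallest p, with 27.0, 37.2, 34.6 and 41.7 CPM in regressing, 46.4, 36.2, 22.9 and 21.3 CPM in terminal combination and 56.4, 67.7, 58.0 and 40.9 CPM in vehicle tumours. Vehicle replicate 4 overlapped 2 treated tumours, and the pooled difference was log2 -0.74, SE 0.21 (edgeR adjusted p 0.409). E2f4, the E2F factor of resting cells, averaged 62.6 ± 10.1 CPM across treated and 83.9 ± 11.8 CPM across vehicle tumours (SD). Ccnd2 and Ccnd1, the genes of cyclins D2 and D1, were higher on average without passing the test. For Ccnd2 the values were 92.3, 111, 278 and 178 CPM in regressing, 215, 201, 304 and 245 CPM in terminal combination and 146, 29.2, 169 and 87.3 CPM in vehicle tumours, with a pooled log2 difference of 0.91 (95% interval -0.03 to 1.85). For Ccnd1 they were 945, 1033, 1392 and 599 CPM in regressing, 602, 1314, 1538 and 1013 CPM in terminal combination and 639, 806, 293 and 913 CPM in vehicle tumours, with 0.67 (95% interval -0.05 to 1.39). Vehicle replicate 3 was the lowest of all tumours for Ccnd1 and vehicle replicate 2 for Ccnd2. The log2 differences of Cdk4, -0.30 (95% interval -0.72 to 0.11), Cdk6, 0.39 (95% interval -0.08 to 0.85), and Rb1, 0.11 (95% interval -0.46 to 0.68), had intervals that held 0.

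Both genes targeted to make the tumours were transcribed in all 12. Nf1 (ENSMUSG00000020716, chromosome 11, 79339693 to 79581612), which encodes neurofibromin, ranged from 11.6 to 23.8 CPM (median 15.4) in treated tumours, against 17.9, 10.2, 22.1 and 21.8 CPM in vehicle tumours (log2 difference -0.17, 95% interval -0.71 to 0.36). Cdkn2a (ENSMUSG00000044303, chromosome 4, 89274471 to 89294653), which encodes p16 and p19, had 393, 7.49, 227 and 96.6 CPM in regressing, 21.2, 257, 125 and 24.8 CPM in terminal combination and 217, 244, 5.08 and 113 CPM in vehicle tumours. Low and high tumours occurred in each group, and the log2 difference was -0.01 (95% interval -2.14 to 2.13), so the groups could not be told apart for it at this spread. Gene-level counts say nothing of whether Cas9 cut the gene.

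Transcripts that ERK drives did not share a direction. Of 21 tested MEK-ERK output genes 4 were higher and 8 lower in both treated groups, where 34% and 35.1% of all genes were. The median was 0.01, with -0.28 in regressing and 0.13 in terminal combination tumours. Dusp6, an ERK phosphatase gene used as a readout of the route, stood at 103, 111, 129 and 70.9 CPM in regressing, 130.01, 184, 332 and 67.3 CPM in terminal combination and 119.8, 179.7, 136 and 147 CPM in vehicle tumours. Terminal combination replicate 3 was the highest and terminal combination replicate 4 the lowest of the 12, and the pooled difference was -0.05 (95% interval -0.85 to 0.76). Spry4, a Sprouty feedback inhibitor gene, ranged from 38.8 to 114 CPM (median 67.2) in treated tumours, against 40.8, 109, 20.5 and 44.3 CPM in vehicle tumours (log2 difference 0.33, 95% interval -0.52 to 1.17). The ETS factor genes Etv4 and Etv5 differed by -0.08 (95% interval -1.22 to 1.06) and -0.20 (95% interval -0.75 to 0.35). Map2k1 and Map2k2, which encode the drug targets MEK1 and MEK2, differed by -0.06 (95% interval -0.43 to 0.30) and 0.23 (95% interval -0.04 to 0.51). Fos and Myc had the smallest p of the list, and single vehicle tumours carried both. Fos, an immediate early gene, ranged from 14.9 to 56.1 CPM in treated tumours (median 20.9), against 34.3, 363, 15.5 and 5.08 CPM in vehicle tumours. Its difference of -2.03 turned to 0.48 without vehicle replicate 2.

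Vehicle replicate 3 had long runs of neighbouring genes far above the other 11 tumours, which touches every pooled value of genes inside them. Jun, Jak1 and Fosl1 are named here after their values were seen. On chromosome 4, from 93334138 to 102973628 (GRCm38), 37 neighbouring genes had a median ratio of 9.85 to the median of the other 11 tumours, and 32 of them were past a log2 ratio of 1.5. The highest was Raver2, an RNA-binding protein gene, 226-fold. The run holds Jun, an AP-1 subunit gene, with 158 to 253 CPM in treated tumours (median 182), against 273, 226, 2071 and 179 CPM in vehicle tumours. It also holds Jak1, a cytokine receptor kinase gene, with 202 to 277 CPM in treated tumours (median 228), against 277, 197, 6012 and 196 CPM in vehicle tumours. Of the 728 genes lower at an unadjusted p under 0.05, 21 lie in this run. Raver2, with 1.49 to 5.61 CPM in treated tumours (median 2.86), against 5.86, 1.14, 672 and 3.73 CPM in vehicle tumours, is among them. So are Ak4, an adenylate kinase gene with 2.92 to 17.4 CPM in treated tumours (median 6.32), against 12.7, 4.79, 1319.5 and 8.64 CPM in vehicle tumours, and Caap1, an apoptosis regulator gene with 4.32 to 6.10 CPM in treated tumours (median 5.24), against 8.64, 9.15, 143 and 5.72 CPM in vehicle tumours. For Caap1, vehicle replicates 1 and 2 lay above all 8 treated tumours as well, by a far smaller margin than vehicle replicate 3. The log2 differences of Raver2, Ak4 and Caap1 were -5.68, -5.49 and -3.00 with it and -0.11, -0.23 and -0.59 without it. A shorter run on chromosome 15, from 60818994 to 64382919, holds Myc, the proto-oncogene, with 55.9, 98.2, 81.0 and 48.5 CPM in regressing, 95.8, 73.6, 95.3 and 70.9 CPM in terminal combination and 83.6, 75.0, 384 and 139 CPM in vehicle tumours. Without vehicle replicate 3 the Myc difference moved to -0.35, against -1.14 with it.

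Terminal combination replicate 4 had a run of its own on chromosome 19, from 5273932 to 6325652, where 55 genes had a median ratio of 4.70 and 41 were past the same limit. Fosl1, the AP-1 and ERK-responsive gene in it, was at 84.5, 33.6, 66.8 and 405 CPM in terminal combination, 50.3, 90.4, 125 and 27.8 CPM in regressing and 44.7, 50.3, 41.3 and 90.7 CPM in vehicle tumours. Counts of RNA do not measure copy number, and the part of such changes in these runs was not tested. Without vehicle replicate 3 the number of genes at an unadjusted p under 0.05 was 1008, against 1588 with all 12 tumours, and the medians of G2 and mitosis genes and of E2F targets were -0.79 and -0.47.

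**Figure D4:**
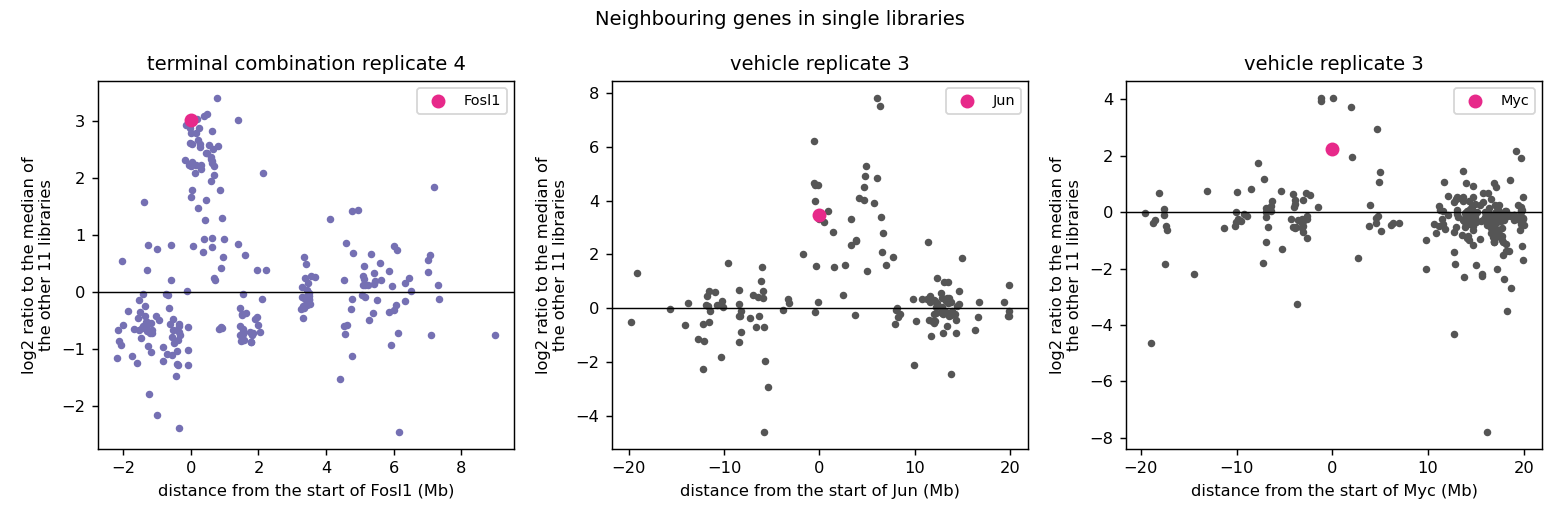
Log2 ratio of each gene in 1 tumour to the median of the other 11 (y axes) against its distance in Mb from the start of Fosl1, Jun or Myc (x axes), for terminal combination replicate 4 (left) and vehicle replicate 3 (middle and right). Points are genes; around the marked gene, neighbours are raised as a run, with median ratios of 4.70, 9.85 and 14.3 from left to right.

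Higher genes with the smallest p came from several functions. The counting step's use of strand is not given in the sources used here, so reads of Bmp6, Serpinb6a, Prr33, Nr1d1, Plin4, Sqstm1, Ccna2, Fen1, Atp2a1, Nf1, Rb1, Cdk4, Tnc, Phf1, Map2k1, Alas2, Ccnd1, Cd247, S100b, Fosl1, Jun, Jak1 and Raver2 cannot be told apart from those of overlapping genes on the opposite strand. Amy1, Per3, Tapbp, mt-Co3 and mt-Nd4 overlap a gene on the same strand. Bmp6 (ENSMUSG00000039004, chromosome 13, 38345107 to 38500302), a ligand of the bone morphogenetic protein (BMP) family, stood at 6.31, 5.69, 8.65 and 5.01 CPM in regressing, 3.63, 7.51, 4.60 and 4.34 CPM in terminal combination and 2.18, 1.43, 1.78 and 2.22 CPM in vehicle tumours. The lowest treated value lay above the highest vehicle value, with a difference of log2 1.58, SE 0.29 (unadjusted p 1.07e-04, edgeR adjusted p 0.409). It remained at 1.25 with the muscle score as a covariate. Mfsd6 (ENSMUSG00000041439, chromosome 1, 52656286 to 52727462), which encodes a membrane transport family protein, had 17.7, 18.3, 19.7 and 15.7 CPM in regressing, 15.8, 16.0, 25.5 and 18.5 CPM in terminal combination and 11.3, 11.5, 9.61 and 7.24 CPM in vehicle tumours. The treated tumours again all lay higher (log2 0.89, SE 0.18), by 0.96 with the covariate. Serpinb6a, an intracellular serine protease inhibitor gene, averaged 377 ± 96.4 CPM across treated and 195 ± 10.1 CPM across vehicle tumours (SD), and its difference was 0.95 alone and 0.45 with the covariate. Ephx1, the microsomal epoxide hydrolase gene, ranged from 24.8 to 138 CPM (median 50.2) in treated tumours, against 21.6, 14.2, 8.998 and 17.3 CPM in vehicle tumours. Gpx3, the extracellular glutathione peroxidase gene, ranged from 152 to 1008 CPM (median 332) in treated tumours, against 121, 53.1, 132 and 104 CPM in vehicle tumours, and differed by 2.02 alone and 1.03 with the covariate. Slc22a18, an organic cation transporter-like gene, ranged from 1.14 to 5.99 CPM (median 3.19) in treated tumours, against 0.385, 0.858, 0.559 and 0.875 CPM in vehicle tumours. These 6 genes did not overlap between treated and vehicle tumours. Cyp2f2, a cytochrome P450 gene, ranged from 3.38 to 32.7 CPM (median 14.8) in treated tumours, against 4.49, 1.86, 0.661 and 2.16 CPM in vehicle tumours, and terminal combination replicate 1 lay within the vehicle range. Its difference was 2.81 alone and 1.79 with the covariate.

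Among non-overlapping genes of larger size, Cldn1, a tight junction gene, ranged from 5.36 to 48.7 CPM (median 13.3) in treated tumours, against 1.15, 4.15, 1.17 and 4.96 CPM in vehicle tumours. Chac1, a glutathione-degrading enzyme induced by the ATF4 stress response, ranged from 8.65 to 73.8 CPM (median 14.6) in treated tumours, against 5.69, 1.79, 4.32 and 5.78 CPM in vehicle tumours, with regressing replicate 1 far above the rest. Its difference was 2.26 alone and 0.63 with the muscle covariate. Other such genes also moved with the muscle score. Prr33, which overlaps the muscle troponin gene Tnnt3 on the opposite strand, had 42.6, 4.70, 7.01 and 27.4 CPM in regressing, 3.02, 15.8, 5.04 and 15.5 CPM in terminal combination and 1.97, 0.500, 0.407 and 0.758 CPM in vehicle tumours. Its difference was 4.02 alone and 1.73 with the covariate. For Slc47a1, a cation efflux transporter gene, the same values were 3.64 and 1.499, for the salivary-type amylase gene Amy1 2.58 and 0.70, and for Parm1, a mucin-like gene, 2.07 and 0.74. Plin5, a lipid droplet protein gene of oxidative tissue, was at 3.57, 0.465, 0.976 and 1.08 CPM in regressing, 0.256, 2.56, 0.831 and 0.913 CPM in terminal combination and 0.0855, 0.143, 0 and 0 CPM in vehicle tumours.

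Lysosome and autophagy genes were higher by a small margin: 16 of 18 tested were higher in both treated groups, where 34% of all genes were, 5 were higher with an unadjusted p under 0.05, as were 5.5% of all genes, and the median was 0.31, with 0.20 in regressing and 0.36 in terminal combination tumours. Sqstm1, the autophagy receptor p62, had 990.2, 641, 597 and 632 CPM in regressing, 528, 899, 575 and 560.1 CPM in terminal combination and 381, 413, 437 and 478 CPM in vehicle tumours. Every treated tumour exceeded every vehicle tumour (log2 0.67, SE 0.19, edgeR adjusted p 0.409), and the difference was 0.40 with the muscle covariate. Tfeb, the transcription factor of lysosomal genes, averaged 28.2 ± 14.1 CPM across treated and 13.8 ± 2.93 CPM across vehicle tumours (SD), and its difference was 1.04 alone and 0.10 with the muscle covariate. Gabarapl1, an autophagosome protein gene, differed by 0.51 and 0.53. Ctsd, the cathepsin D gene, averaged 757 ± 132 CPM in treated and 552 ± 126 CPM in vehicle tumours. Ctsl, the cathepsin L gene, lay the other way with 822 ± 391 CPM in treated and 1197 ± 825 CPM in vehicle tumours. The list median with the muscle covariate was 0.26.

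Circadian clock genes were higher in the pooled comparison for 12 of 18 tested, all 12 in both treated groups, where 34% of all genes were. At an unadjusted p under 0.05, 9 were higher, as were 5.5% of all genes. The median was 0.59, with 0.78 in regressing and 0.37 in terminal combination tumours. Nr1d1, the clock repressor REV-ERBα, had 65.1, 59.3, 97.8 and 93.7 CPM in regressing, 23.0, 65.1, 16.1 and 54.9 CPM in terminal combination and 14.8, 17.7, 24.4 and 20.4 CPM in vehicle tumours. All regressing tumours lay above the vehicle tumours, and terminal combination replicates 1 and 3 lay within their range (log2 1.62, SE 0.44, edgeR adjusted p 0.409). Per3 averaged 8.18 ± 5.93 CPM across treated and 2.95 ± 0.762 CPM across vehicle tumours (SD). The activator genes Clock and Arntl averaged 40.2 ± 7.47 CPM in treated and 41.2 ± 7.13 CPM in vehicle tumours, and 31.0 ± 26.9 CPM in treated and 37.2 ± 27.1 CPM in vehicle tumours, and had opposite signs in the treated groups. With the muscle covariate the list median was 0.03. Harvest hours are not given in the labels, so clock phase and treatment cannot be told apart.

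Of 18 BMP and TGF-β pathway genes, 9 were higher and 3 lower in both treated groups, where 34% and 35.1% of all genes were (median 0.17). Beside Bmp6, only Nog, the gene of the BMP antagonist noggin, had an unadjusted p under 0.05, with 10.1, 3.31, 0.665 and 2.78 CPM in regressing, 1.69, 6.79, 2.35 and 1.25 CPM in terminal combination and 0.428, 0, 0.254 and 1.23 CPM in vehicle tumours. Bmp7, another ligand, had a difference of 1.70 (95% interval -0.40 to 3.81). Id1, a BMP target, averaged 23.2 ± 13.7 CPM in treated and 15.7 ± 2.65 CPM in vehicle tumours, and Smad7, an inhibitory SMAD, averaged 10.8 ± 1.79 CPM in treated and 8.97 ± 1.28 CPM in vehicle tumours.

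Markers of skeletal muscle, fat and red blood cells had the largest list medians that were shared by both treated groups. All 16 skeletal muscle genes were higher in the pooled comparison (median 2.73) and 15 in both treated groups (34% over all genes). Of the 16, 11 had an unadjusted p under 0.05 (5.5% over all genes), and DESeq2 called 9 as higher (1.4% over the genes it tested). Atp2a1, the fast-fibre calcium pump, had 14453, 1336, 2142 and 6173 CPM in regressing, 478, 6598, 1386 and 4235 CPM in terminal combination and 1176, 132, 87.6 and 409 CPM in vehicle tumours. Tnni2, fast troponin I, averaged 897 ± 851 CPM across treated and 102 ± 91.6 CPM across vehicle tumours (SD), and Myoz1, a sarcomere protein gene, averaged 204 ± 239 CPM across treated and 15.7 ± 17.7 CPM across vehicle tumours. Vehicle replicate 1 exceeded terminal combination replicate 1 for all 3 genes. Adipocyte genes were higher in both treated groups for 10 of 11 tested (median 3.35), and their mean log2 CPM ranged from 1.07 to 5.59 in treated and -0.997 to 2.31 in vehicle tumours. Their median was 1.60 with the muscle covariate and 2.54 without the 3 tumours of highest muscle score. Plin4, a lipid droplet gene, had 38.7, 11.7, 16.9 and 41.4 CPM in regressing, 2.82, 17.3, 4.16 and 15.4 CPM in terminal combination and 3.38, 0.500, 0 and 1.81 CPM in vehicle tumours. Adipoq, adiponectin, was at 0.665 to 37.8 CPM (median 12.3) in treated tumours, against 2.91, 0.500, 0.0508 and 1.69 CPM in vehicle tumours, and Car3 averaged 408 ± 531 CPM across treated and 40.1 ± 38.2 CPM across vehicle tumours. Red blood cell genes were higher in both treated groups for 7 of 7 tested (median 2.27), and 6 had an unadjusted p under 0.05. Their median was 2.88 with the muscle covariate and 2.39 without the 3 tumours of highest muscle score. Their mean log2 CPM ranged from 2.63 to 6.69 in treated and 1.66 to 3.80 in vehicle tumours. Alas2, the first enzyme of haem synthesis in red cells, had 16.0, 64.7, 3.64 and 12.5 CPM in regressing, 11.5, 9.89, 14.5 and 40.8 CPM in terminal combination and 1.88, 1.501, 3.61 and 7.70 CPM in vehicle tumours. Only regressing replicate 3 lay within the vehicle range for Alas2. Globin genes Hbb-bs and Hbb-bt averaged 319 ± 266 CPM across treated and 66.0 ± 58.9 CPM across vehicle tumours, and 74.0 ± 68.1 CPM across treated and 13.6 ± 11.6 CPM across vehicle tumours, and as near-identical copies may exchange reads.

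Mitochondrially encoded reads made up 1.29% ± 0.527 of counts in treated and 0.731% ± 0.182 in vehicle tumours (SD, n = 8 and 4). For 3 of 14 tested mitochondrial genes, chosen after their values were seen, all treated tumours lay higher, as they did for 0.428% of all genes. Of these, mt-Nd2 averaged 891 ± 472 CPM across treated and 358 ± 35.5 CPM across vehicle tumours, mt-Nd4 averaged 1063 ± 514 CPM across treated and 484 ± 68.5 CPM across vehicle tumours and mt-Co3 averaged 27.8 ± 14.5 CPM across treated and 11.9 ± 1.71 CPM across vehicle tumours. The first 2 encode subunits of complex I and mt-Co3 one of cytochrome c oxidase. Regressing replicates 1 and 4 and terminal combination replicate 2, the tumours of the highest muscle scores, had the 3 highest values of mt-Nd2 and mt-Nd4. The log2 differences of mt-Nd2, mt-Nd4 and mt-Co3 were 1.31, 1.14 and 1.23 alone, and with the muscle covariate 0.41, 0.27 and 0.49.

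Lower genes beyond cell division included those of cholesterol synthesis, of which 17 of 18 tested were lower in both treated groups (35.1% over all genes) and 4 were lower at an unadjusted p under 0.05 (4.65% over all genes; median -0.54, with -0.83 in regressing and -0.29 in terminal combination tumours). Dhcr7, a late enzyme of the pathway, had 21.2, 29.9, 36.5 and 31.6 CPM in regressing, 34.3, 38.0, 43.2 and 32.5 CPM in terminal combination and 47.9, 55.0, 47.0 and 41.2 CPM in vehicle tumours. Terminal combination replicate 3 alone lay above a vehicle tumour (log2 -0.52, SE 0.16, edgeR adjusted p 0.416). Lss, lanosterol synthase, averaged 18.1 ± 5.63 CPM across treated and 28.1 ± 9.71 CPM across vehicle tumours (SD). With the muscle covariate the list median was -0.21, with 13 of 18 genes lower.

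Polycomb repressive complex 2 (PRC2), which methylates histone H3 and whose subunit genes are often lost in human MPNST, had its alternative catalytic subunits on opposite sides. Ezh2 (ENSMUSG00000029687, chromosome 6, 47530139 to 47595341), the catalytic subunit of dividing cells, had 15.3, 28.0, 24.5 and 17.7 CPM in regressing, 21.7, 20.1, 27.3 and 20.5 CPM in terminal combination and 30.8, 32.9, 34.3 and 39.5 CPM in vehicle tumours. Ezh1 (ENSMUSG00000006920, chromosome 11, 101191115 to 101226463), its counterpart in resting cells, had 62.8, 38.4, 39.3 and 62.6 CPM in regressing, 47.9, 64.2, 39.8 and 38.0 CPM in terminal combination and 33.3, 34.02, 31.0 and 29.9 CPM in vehicle tumours. Neither gene overlapped between treated and vehicle tumours (log2 -0.65, SE 0.17 for Ezh2, log2 0.62, SE 0.19 for Ezh1, edgeR adjusted p 0.409 for both). With the muscle covariate the differences were -0.38 and 0.34. The core subunit genes Eed and Suz12 averaged 25.5 ± 3.64 CPM in treated and 29.7 ± 1.60 CPM in vehicle tumours, and 51.2 ± 14.3 CPM in treated and 62.0 ± 14.5 CPM in vehicle tumours, both transcribed in every group. Phf1, an accessory subunit, averaged 18.4 ± 5.13 CPM across treated and 13.1 ± 2.61 CPM across vehicle tumours.

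Sox11, Fras1 and Avpr1a were among the lower genes of smallest p, and for each of them 3 of the 4 vehicle tumours lay above every treated tumour. Sox11, a neural progenitor transcription factor, ranged from 0.0581 to 1.03 CPM in treated tumours (median 0.224), against 4.49, 0.143, 17.2 and 10.97 CPM in vehicle tumours. Vehicle replicate 2 lay among the treated tumours. Fras1, a basement membrane protein gene, ranged from 0.191 to 0.733 CPM in treated tumours (median 0.493), against 5.86, 1.29, 0.610 and 2.10 CPM in vehicle tumours. Avpr1a, a vasopressin receptor gene, ranged from 1.02 to 3.95 CPM in treated tumours (median 1.52), against 1.37, 65.0, 10.2 and 4.32 CPM in vehicle tumours, vehicle replicate 2 far above the rest, and differed by -3.41 alone and -1.33 with the muscle covariate. Acan, the cartilage proteoglycan aggrecan, is the 1 gene that edgeR called, as lower, in the 8 tumours without the unexplained title ending FFT (adjusted p 0.0478), and is named after that call was seen. It had enough reads in too few tumours to be tested over all 12, with 0, 2, 1 and 0 reads in regressing, 0, 2, 2 and 2 in terminal combination and 1, 0, 104 and 178 in vehicle tumours, where replicates 3 and 4 held nearly all of them. Replicates 3 and 4 are also the only vehicle tumours without the FFT ending. Acan thus passed the filter of that subset through the tumours in which it was high, so the call is no support for a difference.

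Schwann cells, the glia of nerve sheaths, were checked by defining markers, of which S100b is named after its values were seen. Sox10, the lineage transcription factor, was at 0.892, 1.16, 1.11 and 0.540 CPM in regressing, 0, 0.715, 2.10 and 0.456 CPM in terminal combination and 0.0855, 0, 0.0508 and 0 CPM in vehicle tumours, so that all vehicle values were at or under the limit that 3 counts set. S100b, a Schwann calcium-binding protein gene, had 3.63, 2.497, 10.4 and 1.70 CPM in regressing, 5.12, 8.99, 2.49 and 6.28 CPM in terminal combination and 3.12, 0.143, 0.254 and 0.467 CPM in vehicle tumours. Sox10 and S100b were thus low in most vehicle tumours and higher on average in treated tumours. Other lineage genes lay the other way: Erbb3, the neuregulin receptor, had 1.02, 1.80, 2.26 and 2.47 CPM in regressing, 1.07, 1.07, 5.43 and 6.05 CPM in terminal combination and 37.0, 1.07, 8.08 and 9.63 CPM in vehicle tumours, with vehicle replicate 2 as low as the treated tumours. Ncam1, an adhesion molecule of immature Schwann cells, averaged 52.4 ± 25.5 CPM across treated and 119.6 ± 75.4 CPM across vehicle tumours (SD). Of 13 tested lineage genes, 4 were higher and 3 lower at an unadjusted p under 0.05, where 5.5% and 4.65% of all genes were. In both treated groups 8 of the 13 were higher and 4 lower, where 34% and 35.1% of all genes were. Adjacent nerve and tumour cells cannot be told apart in these libraries.

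Extracellular matrix and fibroblast genes were mixed (8 of 20 higher and 5 lower in both treated groups, median 0.16). Over all genes, 34% were higher and 35.1% lower in both. Dcn, the proteoglycan decorin, had 1243, 547, 656 and 2652 CPM in regressing, 1067, 871, 304 and 1044 CPM in terminal combination and 145, 466, 347 and 238 CPM in vehicle tumours, and only terminal combination replicate 3 fell inside the vehicle range. Lum, lumican, averaged 113 ± 89.4 CPM across treated and 39.6 ± 15.9 CPM across vehicle tumours (SD). Tnc, tenascin C, ranged from 86.9 to 883 CPM in treated tumours (median 281), against 1188, 36.5, 925 and 1103 CPM in vehicle tumours (log2 difference -1.28, 95% interval -2.85 to 0.28).

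The medians of the immunoglobulin, T cell, antigen presentation and interferon lists lay above 0 in regressing and below 0 in terminal combination tumours, with a wide spread among the regressing tumours. Immunoglobulin constant genes (10 of 12 tested) had a pooled median of 2.79, yet 3.74 in regressing and -0.83 in terminal combination tumours. Without the 3 tumours of highest muscle score, which include regressing replicates 1 and 4, the pooled median was 1.27. Of these 10 genes 1 was higher in both, where 34% of all genes were. Igkc, the kappa light chain constant gene, had 429, 900.2, 87.8 and 625 CPM in regressing, 12.6, 4.11, 18.2 and 19.1 CPM in terminal combination and 9.67, 7.43, 2.39 and 81.6 CPM in vehicle tumours. Vehicle replicate 4 exceeded every terminal combination tumour. Jchain, which joins secreted IgA and IgM, had 43.1, 109, 8.52 and 53.5 CPM in regressing, 0.665, 0.477, 1.03 and 3.88 CPM in terminal combination and 2.05, 1.07, 0.305 and 9.69 CPM in vehicle tumours. The exception was Ighg1, the IgG1 heavy chain constant gene, with 5.03, 2.96, 1.33 and 5.71 CPM in regressing, 1.18, 0.179, 6.60 and 1.37 CPM in terminal combination and 0.299, 0, 0.153 and 0.0583 CPM in vehicle tumours. Ighg1 passed the read filter through treated tumours only, so the filter favours the higher direction for it. Between terminal combination and regressing tumours, 9 of the 10 immunoglobulin genes and 14 of 18 T cell markers had an unadjusted p under 0.05, where 1099 genes (7.02%) did in all, 0 passed edgeR and 51 (0.335%) passed DESeq2. T cell markers were higher in both groups for 2 of 18 (median 2.39 in regressing and -0.59 in terminal combination tumours). Their mean log2 CPM was 1.93, 2.94, 0.36 and 5.36 in regressing, 1.11, 0.13, 0.54 and 2.24 in terminal combination and 1.95, 0.91, 1.84 and 1.70 in vehicle tumours. Regressing replicates 2 and 4 lay above the vehicle range, replicate 1 within it and replicate 3 below it. Regressing replicate 3 also lay below every vehicle tumour in the mean log2 CPM of the interferon and antigen presentation lists. Replicate 4 led Lat, Cd5 and Cd247, all T cell receptor signalling genes, at 33.9, 19.8 and 22.8 CPM. Interferon response genes had opposite signs in the treated groups for 20 of 20, where 69.0% of all genes had the same sign in both. Among them were Cxcl9, a T cell chemokine (1.48 in regressing and -1.33 in terminal combination tumours), and Rsad2, viperin (0.01 in regressing and -1.500 in terminal combination tumours). The mean log2 CPM of the list overlapped between groups, at 3.52 to 7.32 in regressing, 3.38 to 5.32 in terminal combination and 3.94 to 6.61 in vehicle tumours.

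Antigen presentation genes were higher in both groups for 3 of 15, where 34% of all genes were (median 0.88 in regressing and -0.18 in terminal combination tumours). The class I genes H2-K1 and H2-D1 differed by 0.61 (95% interval -0.64 to 1.86) and 0.60 (95% interval -0.51 to 1.71) in the pooled comparison, and Tapbp, the peptide loading chaperone tapasin, by 0.38 (95% interval -0.23 to 1.002). Cd274, which encodes PD-L1, differed by -0.02 (95% interval -1.48 to 1.44). Of 10 lymphoid chemokine and B cell survival genes 4 were higher in both groups, where 34% of all genes were. Glycam1, a ligand of the homing receptor on high endothelium, was at 3.50, 1.05, 0.621 and 10.8 CPM in regressing, 0.102, 1.07, 0.0978 and 0.570 CPM in terminal combination and 0, 0, 0.0508 and 0 CPM in vehicle tumours, so that terminal combination replicates 1 and 3 and all vehicle tumours were at or under the limit that 3 counts set, and the other 6 treated tumours lay above it. Ccl21a, a lymphoid homing chemokine with near-identical copies, averaged 2.26 ± 1.55 CPM across treated and 0.510 ± 0.335 CPM across vehicle tumours (SD), Il7, a lymphocyte survival cytokine, averaged 2.92 ± 2.14 CPM across treated and 1.14 ± 0.414 CPM across vehicle tumours, and Cxcl13, a B cell chemokine, differed by 1.12 (95% interval -0.73 to 2.96).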

How the data were processed

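The authors deposited raw read counts per Ensembl gene for each tumour (54532 genes, of which 54495 matched GENCODE M21, GRCm38). Per the submitters' processing notes HISAT2 2.2.1, Salmon and DESeq2 1.24.0 were used on mm10 and GRCm38.p6. The counting step and its strand setting are not given in the sources used here. The deposited counts were tested with edgeR 4.0.16 (R 4.3.3). The filter asked for about 10 counts in at least 4 tumours of any group, and for 15 counts in all, and 15650 genes passed it. A gene seen only in vehicle tumours thus had to reach it in all 4, and a gene seen only in treated tumours in 4 of 8. TMM scaling was applied, and the quasi-likelihood test compared 8 treated with 4 vehicle tumours, with Benjamini-Hochberg adjustment over all genes at 0.05. Contrasts of each treated group with vehicle, and between the treated groups, came from a joint fit of all tumours by group, with a shared estimate of the spread. DESeq2 1.42.0, RLE scaling, other filters, covariates, subsets and leaving out each tumour were alternatives. The fitting code was tested on simulated data. No library was a copy of another (chi-square over degrees of freedom at least 40.3 for each pair). Total counts per tumour ran from 13194699 to 22639625, and depth limits genes with few reads.

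Genes are named if among the 10 of smallest p or the 5 non-overlapping genes of largest difference in each direction (mean of at least 5 CPM for the second), the 3 of smallest p of each described list, or on a fixed short list of drug targets and readouts. Some genes the rule names are not reported here. Any other gene with values was named after its values were seen. Members and lists were chosen with earlier results of these data known. Promoter letters came from RefSeq. Figures were drawn with matplotlib 3.10.9.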

Additional observations from a re-analysis of the deposited data

Results flagged for a closer look

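Within each group of 4 tumours, values of the named genes were checked for a tumour far from the other 3, by the gap to the nearest value over the whole range (limit 0.829). Of 309 groups of values, 28 were past it, and chance flags about 1 in 20 groups. In regressing tumours, replicate 4 stood apart in 7 genes. These were Cyp2f2 at 29.7 CPM, Cldn1 at 48.7 CPM, Car3 at 1688 CPM, Lat at 33.9 CPM, Cd5 at 19.8 CPM, Cd247 at 22.8 CPM and Rb1 at 25.6 CPM. The T cell genes and the adipocyte marker Car3 were thus high in the same tumour. Regressing replicate 1 stood apart for Gpx3 at 1008 CPM, Sqstm1 at 990.2 CPM and Chac1 at 73.8 CPM.

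Among terminal combination tumours, replicate 4 stood apart for Alas2 at 40.8 CPM, Ccl21a at 4.56 CPM, Jchain at 3.88 CPM and Fosl1 at 405 CPM. Replicate 2 did so for Sqstm1 at 899 CPM and Parm1 at 15.5 CPM, and replicate 3 for E2f4 at 83.8 CPM. In vehicle tumours, replicate 3 stood apart for Raver2 at 672 CPM, Ak4 at 1319.5 CPM, Caap1 at 143 CPM, Jun at 2071 CPM, Jak1 at 6012 CPM and Glycam1 at 0.0508 CPM. The first 5 lie in its run on chromosome 4, and Glycam1 had no read in the other vehicle tumours. Vehicle replicate 2 stood apart for Avpr1a at 65.0 CPM and Fos at 363 CPM. Vehicle replicate 4 did so for Per3 at 4.08 CPM and Igkc at 81.6 CPM, and vehicle replicate 1 for S100b at 3.12 CPM. The causes were not tested.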

How the results depend on the processing

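With 8 treated and 4 vehicle tumours, edgeR called 0 genes in the pooled, regressing and terminal combination comparisons with vehicle under every alternative run, except 1 pooled gene (Acan) in tumours without the FFT ending. Vehicle replicates 3 and 4 are the only vehicle tumours there, and Acan passed the filter through them. DESeq2 called 255 pooled, 477 regressing and 14 terminal combination genes against vehicle, and 51 between the treated groups. Genes at an unadjusted p under 0.05, 1588 with all tumours, numbered 366 in tumours with the FFT ending, 521 with the muscle score and 428 with the adipocyte score as covariate, 714 without the 3 tumours of highest muscle score and 789 for the terminal harvest alone. Leaving out 1 tumour gave 1008 (without vehicle replicate 3) to 2028 (without terminal combination replicate 3). The treated groups compared with each other gave 0 to 1 genes, the 1 being Pcsk6, a proprotein convertase gene chosen after this call was seen, without terminal combination replicate 4. Non-overlapping genes depend by construction on the number of tumours: 67 to 271 higher and 64 to 220 lower leaving out 1 tumour, both highest without vehicle replicate 1. They were 953 and 1049 without the FFT ending, 1917 and 2286 with it, 173 and 213 for the terminal and 514 and 633 for the regressing harvest, and 106 lower without the 3 muscle-rich tumours.

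Of 103 named genes, 43 passed the threshold under an alternative, all with DESeq2, and 23 took the other sign under some alternative (81 of 2533 values). With the muscle score as covariate the log2 differences of opposite sign were 0.17 for Cdk4, -0.38 for Cd5, -0.0349 for Cd247, -0.45 for Cxcl9, -0.48 for Rb1, 0.63 for Etv4 and 0.38 for Dusp6. With the adipocyte score they were -0.0836 for Adipoq (a member of the list that makes the score, so its loss of difference follows from the construction), -0.55 for Igkc, -1.32 for Jchain, -0.81 for Lat, 0.0468 for Cdk4, -1.12 for Cd5, -1.30 for Cd247, -1.09 for Cxcl13, -0.21 for H2-D1, -0.38 for H2-K1, 0.0654 for Etv5, 0.0095 for Nf1, -2.01 for Cxcl9, -0.31 for Rb1, 0.73 for Etv4 and 0.70 for Dusp6. Without the 3 muscle-rich tumours they were -0.16 for Cxcl9, -0.0384 for Rb1, 0.22 for Etv4 and 0.0656 for Dusp6. Terminal combination tumours alone gave -0.90 for Igkc, -1.10 for Jchain, -0.0465 for Lat, -0.56 for Cd5, -0.14 for Cd247, -0.40 for Cxcl13, -0.0413 for H2-D1, -0.18 for H2-K1, -1.33 for Cxcl9 and 0.29 for Dusp6. Regressing tumours alone gave 0.0121 for Rsad2, 0.49 for Cd274 and 0.33 for Cdkn2a. Tumours with the FFT ending gave 0.25 for Raver2, 0.51 for Nf1, -1.63 for Cxcl9 and -0.42 for Rb1. Those without it gave 1.45 for Fos, 0.0987 for Etv5, 0.0732 for Dusp6 and 1.06 for Cdkn2a, and the ending as a covariate gave 0.55 for Cdkn2a. RLE scaling gave 0.0059 for Cdkn2a, DESeq2 gave 0.0058 for Cdkn2a and 0.0018 for Cd274, and 10 counts in 8 tumours gave 0.0053 for Cd274. Leaving out 1 tumour gave -2.43 to 0.48 for Fos, -1.31 to 0.0694 for Rsad2, -0.48 to 1.55 for Cxcl9, -0.0629 to 0.38 for Rb1, -0.15 to 0.0756 for Map2k1, -0.28 to 0.12 for Etv4, -0.35 to 0.0683 for Dusp6, -0.63 to 0.50 for Cd274, -0.41 to 0.37 for Cdkn2a and -3.20 to 0.0737 for Jak1. The cause was not tested. No paired analysis was possible because the replicate numbers follow the order of the samples and pair none of them. Depth limits Sox10, Plin5 and Glycam1, which had at most a few reads in vehicle tumours.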

Other observations

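The remaining gene lists are given by their medians. The 4 tested neutrophil markers had a median log2 difference of -1.37 (-1.17 in regressing and -1.59 in terminal combination tumours). S100a9, a calcium-binding alarmin subunit of neutrophils, averaged 1.08 ± 0.884 CPM in treated and 7.44 ± 11.98 CPM in vehicle tumours (SD, n = 8 and 4), and vehicle replicate 3 led the list. Without that tumour the neutrophil median was -0.18. Of 9 drug efflux transporter genes 5 were higher in both treated groups, where 34% of all genes were. At an unadjusted p under 0.05 (edgeR) 2 were higher, where 5.5% of all genes were. Abcb4, a phospholipid transporter, averaged 22.4 ± 22.7 CPM in treated and 3.06 ± 2.03 CPM in vehicle tumours. Abcc5, an organic anion transporter, averaged 31.6 ± 8.03 CPM in treated and 21.7 ± 5.97 CPM in vehicle tumours.

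Secreted genes linked to senescence had a median of 0.05, and their chemokines lay on both sides. Cxcl5, a neutrophil attractant, averaged 0.873 ± 1.10 CPM in treated and 9.86 ± 12.1 CPM in vehicle tumours. Ccl8, a monocyte attractant, averaged 179 ± 145 CPM in treated and 63.8 ± 27.4 CPM in vehicle tumours. Among 18 p53 targets (median 0.19), Ccng1, a cyclin G gene, averaged 267 ± 112 CPM in treated and 157 ± 35.5 CPM in vehicle tumours. Medians were -0.03 for 18 RAS-RAF-MEK-ERK components, 0.09 for 23 receptor tyrosine kinase and ligand genes, -0.04 for 16 hypoxia and glycolysis genes and 0.02 for 14 BCL2 family genes. B cell markers (6) had a pooled median of 1.56, with 2.31 in regressing and -0.36 in terminal combination tumours. Plasma cell markers (15) had 0.23, with 0.39 in regressing and -0.31 in terminal combination tumours. Cytotoxic lymphocyte genes (13) had 0.63, with 0.83 in regressing and -0.02 in terminal combination tumours. Dendritic cell markers (12) had 0.42, with 0.62 in regressing and -0.41 in terminal combination tumours. Mast cell markers (12) had 0.58, with 0.57 in regressing and 0.65 in terminal combination tumours. Without vehicle replicate 3 the cytotoxic lymphocyte, dendritic cell and mast cell medians were 0.39, 0.20 and 0.31. Macrophage markers (18) had -0.0025 and keratinocyte genes (5) 0.19. Checkpoint genes (10) had -0.01, with 0.44 in regressing and -0.65 in terminal combination tumours, and 8 of them had opposite signs in the treated groups. Endothelial genes (16) had 0.18, with 0.38 in regressing and 0.01 in terminal combination tumours. The checkpoint, endothelial, senescence and hypoxia medians were 0.41, 0.39, 0.33 and 0.26 without vehicle replicate 3.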
